A study of Mus musculus with 2 samples.

Results

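The genes described here build the first stage of the secretory pathway: the machinery that carries nascent proteins into the endoplasmic reticulum (ER) and the COPII and COPI vesicle coats that move them between ER and Golgi. The set holds 53 genes, and 52 of them are among the 18194 genes with a probe set that the array annotation names by a single symbol. The 53 genes were chosen by their role in this pathway, at a time when the signal ratios of the same 2 arrays were already known, so their ratios are given as a description with no test. Liver RNA came from ICR mice, an outbred stock, and was measured on Affymetrix arrays. The diosgenin group received the basal diet CRF-1 with 500 ppm diosgenin, a steroidal sapogenin of plants, for 4 weeks from 9 weeks of age, and the control group received CRF-1 alone. Livers were taken at 13 weeks of age. Each diet was represented by 1 array that carried RNA pooled from 3 mice, so no spread between mice can be had. Cages held 3 mice. How cages were assigned to diets, the sex of the mice and the hour of collection are not stated in the labels, and if each diet was 1 cage, cage and diet cannot be told apart.

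A hepatocyte exports most of the proteins of blood plasma, and nearly all of them enter the ER while they are being translated. The signal recognition particle brings the ribosome to the Sec61 channel, signal peptidase cuts off the leader peptide, and oligosaccharyltransferase attaches sugar chains to asparagine residues. COPII coats then bud cargo vesicles from ER exit sites, and COPI coats return escaped ER proteins and recycle receptors from the Golgi. Transcription of many of these genes is known to respond to the load of unfolded protein in the ER.

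The deposited values were linear signal intensities. Their 2% trimmed mean, computed here, was 96.9 on both arrays, and the scaling target used is not stated. The median signal was 17.0 on the diosgenin array and 17.1 on the control array. Signals under a floor of 10.7 were raised to it, a gene was represented by its brightest probe set, and genes were counted where the mean signal of both arrays reached 28.4. Ratios are log2 values of diosgenin over control, so a negative ratio is a lower signal on the diosgenin array. The tissue label was checked against its markers: the 5 hepatocyte markers read were bright, with 3 lower and 2 higher and summed signals of 44647 on the diosgenin array and 46512 on the control array. Endothelial markers were lower in 5 of 5 cases, with summed signals of 978 on the diosgenin array and 1360.2 on the control array. Stellate cell markers above the filter were higher in 4 of 4 cases. The sum over all 5 stellate markers was 1508 on the diosgenin array and 1271 on the control array. The stellate marker under the filter, Col1a1, was lower, at 17.2 on the diosgenin array and 31.3 on the control array. Rgs5, counted as higher, had 3 probe sets from −0.74 to 0.28. Plasma and B cell markers were dim, with 2 of 4 above the filter: Jchain had 29.5 on the diosgenin array and 34.6 on the control array, and Mzb1 had 36.0 on the diosgenin array and 34.1 on the control array. Over all 4 the sums were 94.6 on the diosgenin array and 79.6 on the control array, with the largest difference in Cd79a, at 27.7 on the diosgenin array and, under the floor, 9.86 on the control array. Kupffer cell markers were higher in 3 and lower in 2 of 5 cases and summed to 1458 on the diosgenin array and 1348 on the control array, with the largest difference in Clec4f, at 439 on the diosgenin array and 341 on the control array. Biliary markers, 1 of 4 above the filter, summed to 58.1 on the diosgenin array and 106 on the control array. None of the 3 pancreatic acinar markers read by a single-symbol probe set passed the filter. No marker read was at exactly 0. In whole tissue, fewer cells of a type and less RNA per cell cannot be told apart, and the part of these markers in the ratios below was not tested. The ratio of the 3′ to the 5′ control probe set was 0.799 on the diosgenin array and 0.822 on the control array for Gapdh. For Actb it was 2.03 on the diosgenin array and 1.86 on the control array.

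The secretory transport genes leaned towards lower signals on the diosgenin array, by small amounts. Of the 53 genes, 51 passed the signal filter, and all 51 had both signals above it, the lowest being 41.7. Of these, 38 had a log2 ratio below 0 and 13 one above 0, where 51.0% of all 9732 genes above the filter were below 0. The median log2 ratio was −0.11, against −0.01 over all genes, and the range was −0.51 to 0.23. A signal at most 0.8 times that of the control array, which is at least 20% lower or −0.32 on the log2 scale, was found for 10 of the 51, or 19.6%, against 11.8% of all genes. The same distance upwards is at least 25% higher, and 0 of the 51 reached it, against 10.6% of all genes. On the brightest probe set, none reached 1.5-fold in either direction, a distance at which 3.61% of all genes were lower and 2.84% higher. Some less bright probe sets above the filter passed it. Those of Srprb at −0.64 and −0.74, Ssr1 at −0.66 and Sec24b at −0.85 were lower, and that of Sec61a1 at 0.88 was higher.

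These genes are mostly bright, and bright genes vary less between the 2 arrays. Of the 51, 45 lay in the brightest 25% of genes, with mean signals from 377 upwards. In that class 5.47% of genes were at least 20% lower and 4.89% at least 25% higher, and 50.5% had a log2 ratio below 0. Of the 45 members there, 9 were at least 20% lower, 0 at least 25% higher, and 35 were below 0. The central 95% of genes in that class ran from −0.47 to 0.44, and 2 members, Sec22b and Sec23b, lay under its lower end. The others stayed inside the range of their class. The members were chosen with these ratios known, so none of these counts shows that the set stands apart.

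**Figure D1:**
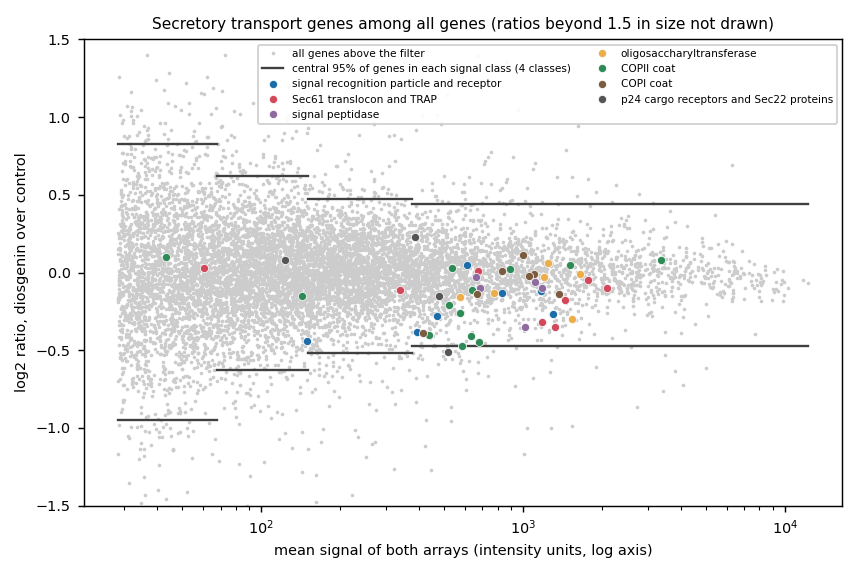
Log2 ratio of signals, diosgenin over control (vertical axis) against the mean signal of both arrays (horizontal log axis, intensity units) for all genes above the filter in grey and for the members, coloured by machinery. Black lines bound the central 95% of genes in each of 4 signal classes; 45 of the 51 members sit in the brightest class, mostly below 0 and within −0.47 to 0.44.

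Of the 10 members at least 20% lower, Sec61a1 lay just inside that distance at 1.278-fold lower, and Ssr1 was just outside it at 1.246-fold lower. Rpn1 followed at 1.229-fold lower and Srp68 at 1.211-fold lower. Several probe sets read the same gene in 27 of the members, which gives a repeat measurement inside the arrays but no spread between mice. The standard deviation of log2 ratios within a gene was 0.22 over these 27 members and 0.28 over all 4079 such genes, so many single ratios below are no larger than this spread. In 12 of the 27 all probe sets above the filter were below 0, and in none were all above 0. Of the 96 member probe sets above the filter, 74 were below 0. Neither count was made over all genes, so whether they are unusual was not tested.

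**Figure D2:**
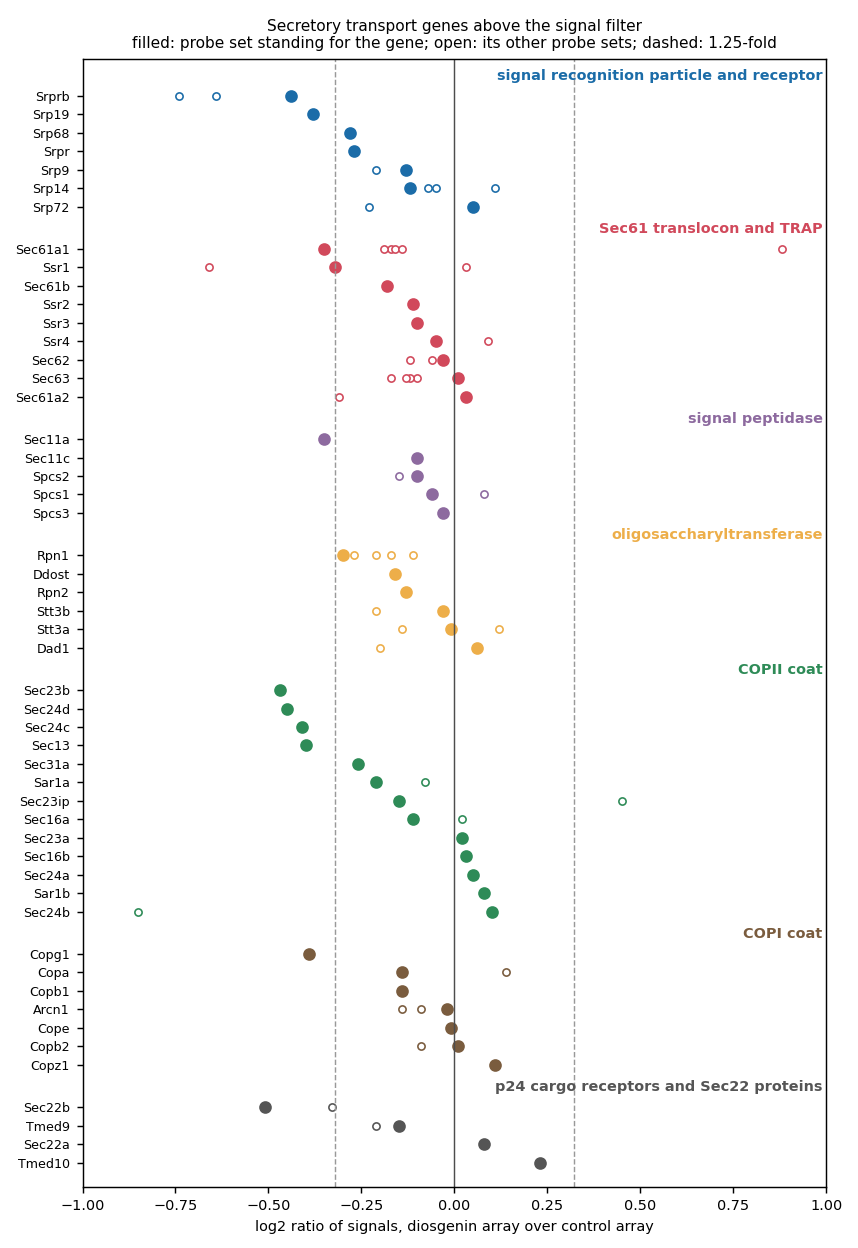
Log2 ratio of signals, diosgenin array over control array (horizontal axis), for the 51 members above the filter, grouped by machinery. Filled points are the probe set that stands for the gene, open points its other probe sets above the filter, and dashed lines mark 20% lower and 25% higher; the 10 members left of the left dashed line include 4 COPII genes, and no filled point lies right of the right one.

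The signal recognition particle and its receptor had 6 of 7 genes below 0 and a median log2 ratio of −0.27. At least 20% lower were 2 of the 7, or 28.6%, against 11.8% of all genes. Srprb encodes the membrane-anchored β subunit of the receptor. It had a signal of 127 on the diosgenin array and 173 on the control array, 1.36-fold lower. All 3 Srprb probe sets were lower, at log2 ratios of −0.44, −0.64 and −0.74. The α subunit of the receptor, Srpr, had 1186 on the diosgenin array and 1428 on the control array, a log2 ratio of −0.27. Both receptor subunits therefore had lower signals on the diosgenin array.

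Among the particle's own proteins, Srp19, which helps to assemble the particle on its RNA, had signals of 342 on the diosgenin array and 446 on the control array, 1.31-fold lower on a single probe set. Srp68 was at 426 on the diosgenin array and 515 on the control array, whereas its partner Srp72 was at 623 on the diosgenin array and 600.4 on the control array. The second Srp72 probe set gave −0.23, opposite in sign to the first at 0.05. Srp9 and Srp14, the pair that slows elongation while the ribosome is brought to the membrane, differed little between the arrays. Srp9 had 798 on the diosgenin array and 871 on the control array, and Srp14 had 1126 on the diosgenin array and 1228 on the control array. Probe sets of Srp14 went both ways, from −0.12 to 0.11.

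At the translocation channel and its associated TRAP complex, 7 of 9 measured genes were below 0, with a median log2 ratio of −0.10. At least 20% lower was 1 of the 9, or 11.1%, near the 11.8% of all genes. Sec61a1, the main pore-forming subunit, had 1164 on the diosgenin array and 1487 on the control array, a log2 ratio of −0.35. Its 6 probe sets differed in size: 4 others lay between −0.19 and −0.14, and a dim one stood at 0.88 with signals of 60.4 on the diosgenin array and 32.9 on the control array. The median of the 6 was −0.17, short of 20% lower. The paralogue Sec61a2 was dim, at 61.0 on the diosgenin array and 59.6 on the control array. The small subunit Sec61b was 1.13-fold lower at 1356 on the diosgenin array against 1532 on the control array. The third subunit, Sec61g, has no single-symbol probe set and is not counted. Sec62 and Sec63 help proteins that enter after translation, and Sec63 recruits the chaperone Hspa5 to the channel. Sec62 was level at 1083 on the diosgenin array and 1109 on the control array, with other probe sets above the filter at −0.12 and −0.06. Sec63 was at 677 on the diosgenin array and 674 on the control array, with its other probe sets from −0.17 to −0.10.

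The 4 TRAP subunits, which assist the entry of some signal sequences, all had log2 ratios below 0. Ssr1 had 1053 on the diosgenin array and 1313 on the control array, with further probe sets from −0.66 to 0.03. Ssr2 was at 326 on the diosgenin array and 352 on the control array. Ssr3 was at 2027 on the diosgenin array and 2172 on the control array. Ssr4 was at 1742 on the diosgenin array and 1798 on the control array. Among them Ssr1 alone came near 20% lower.

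Signal peptidase had 5 of 5 genes below 0 with a median log2 ratio of −0.10. Sec11a, one of the alternative catalytic subunits, was the lowest, with 893 on the diosgenin array and 1142 on the control array, 1.28-fold lower. The other catalytic subunit, Sec11c, was 1.07-fold lower at 662 on the diosgenin array against 712 on the control array. The accessory subunits were 1.02-fold to 1.08-fold lower on their brightest probe sets. Spcs1 had 1092 on the diosgenin array and 1139 on the control array. Spcs2 had 1144 on the diosgenin array and 1230.1 on the control array, with a second probe set at −0.15. Spcs3 had 653 on the diosgenin array and 667 on the control array. A second Spcs1 probe set was at 0.08, on the other side of 0.

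Oligosaccharyltransferase had 5 of 6 genes below 0, a median log2 ratio of −0.08 and no gene at least 20% lower, against 11.8% of all genes. Rpn1, a non-catalytic subunit that holds substrates near the active site, was lowest at 1381 on the diosgenin array and 1698 on the control array. Its 5 probe sets above the filter all lay below 0, from −0.30 to −0.11. Ddost was 1.11-fold lower at 544 on the diosgenin array against 606 on the control array, and Rpn2 1.09-fold lower at 739 on the diosgenin array against 806 on the control array. The small subunit Dad1 had 1269 on the diosgenin array and 1221 on the control array, with its second probe set at −0.20. The catalytic subunits Stt3a and Stt3b, which act during and after translocation, were level on their brightest probe sets. Other probe sets above the filter were at −0.14 and 0.12 for Stt3a and −0.21 for Stt3b. Stt3a had 1652 on the diosgenin array and 1658 on the control array, and Stt3b had 1185 on the diosgenin array and 1213 on the control array.

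The COPII coat held 4 of the 10 members that were at least 20% lower, and its 13 genes had a median log2 ratio of −0.15. That is 30.8% of its genes, against 19.6% of the 51 members and 11.8% of all genes. Of its 13 genes 8 were below 0, where 38 of the 51 members were. The inner coat is made of Sec23, which switches off the GTPase Sar1, and Sec24, which binds cargo. Both proteins come from several genes, and the paralogues had different ratios. Sec23b had 489 on the diosgenin array and 679 on the control array, 1.39-fold lower, whereas Sec23a had 899.9 on the diosgenin array and 888 on the control array. Sec24d was 1.37-fold lower, at 573 on the diosgenin array and 785 on the control array. Sec24c, the closest relative of Sec24d, was 1.33-fold lower at 545 on the diosgenin array against 726 on the control array. Sec24a, by contrast, had 1543 on the diosgenin array and 1491 on the control array, and Sec24b was dim at 44.6 on the diosgenin array and 41.7 on the control array. Whether the paralogues differ was not tested, with 1 array a diet. A second probe set of Sec24b, also dim at 24.6 on the diosgenin array and 44.4 on the control array, gave −0.85.

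In the outer coat, Sec13 was 1.32-fold lower, with 376 on the diosgenin array and 496 on the control array, and its partner Sec31a had 524 on the diosgenin array and 628 on the control array, a log2 ratio of −0.26. Sec13 protein is also part of the nuclear pore. Of the GTPases that start coat assembly, Sar1a had 483 on the diosgenin array and 559.7 on the control array. Sar1b, the form needed for the export of large lipoproteins, had 3465 on the diosgenin array and 3282 on the control array, a log2 ratio of 0.08. Of the exit site organisers, Sec16a was at 617 on the diosgenin array and 665 on the control array, and Sec16b at 542 on the diosgenin array and 530.2 on the control array. Sec23ip, which binds Sec23 and Sec31, was at 136 on the diosgenin array and 150.2 on the control array, and its second, dimmer probe set was at 0.45. The lower genes of the COPII coat were thus a subset, each read by a single probe set above the filter.

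**Figure D3:**
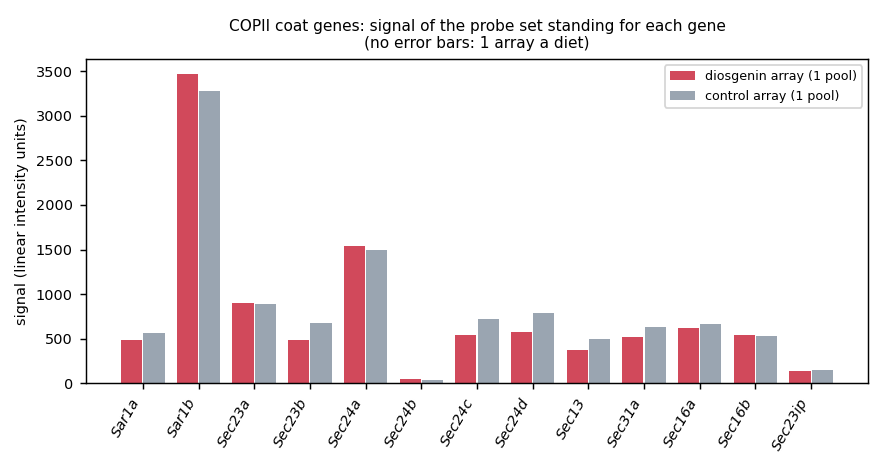
Signal in linear intensity units (vertical axis, from 0) of the probe set that stands for each of the 13 COPII genes, with the diosgenin array in red and the control array in grey; there are no error bars, since each diet had 1 array. Sec23b, Sec24c, Sec24d and Sec13 are visibly lower on the diosgenin array, while Sec23a, Sec24a and Sar1b are level or slightly higher; bar heights of different genes come from different probes and are not comparable.

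Genes of the ER folding response are known to be controlled through short promoter motifs, so the members' promoters were searched for them and the stretches that hold one are shown. RefSeq promoter windows of 300 bases (GRCm38.p6) were matched by symbol for 45 of the 53 genes. The motif TGACGTGG, known as the unfolded protein response element and bound by the factor XBP1, was searched on both strands. It occurred in 5 of the 45 members, or 11.1%, against 0.714% of the 27025 genes with a window and 1.05% of the 7973 of these above the signal filter. In a list of ER folding genes it occurred in 1 of 29, or 3.45%. Capitals mark the match in the sequences below, written 5′ to 3′ along the gene; in the Sec24d window, which is given whole, capitals also mark a CCAAT box in reverse (ATTGG).
Sec24d: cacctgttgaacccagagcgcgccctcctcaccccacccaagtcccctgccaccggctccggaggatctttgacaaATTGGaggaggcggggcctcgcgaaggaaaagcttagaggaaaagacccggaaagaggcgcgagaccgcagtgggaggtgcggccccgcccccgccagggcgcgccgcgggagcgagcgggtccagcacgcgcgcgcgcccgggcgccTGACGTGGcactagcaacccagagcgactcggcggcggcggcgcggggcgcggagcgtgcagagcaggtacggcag
Sec23a: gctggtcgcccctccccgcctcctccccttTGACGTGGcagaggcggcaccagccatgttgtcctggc
Sec16b: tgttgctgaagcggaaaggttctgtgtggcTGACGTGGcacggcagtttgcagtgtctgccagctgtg
Copb1: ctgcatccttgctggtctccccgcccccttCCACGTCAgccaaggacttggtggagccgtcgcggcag
Copb2: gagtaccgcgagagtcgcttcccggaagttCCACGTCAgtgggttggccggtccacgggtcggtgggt

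The Sec24d window lies at chr3:123267246-123267545 on the plus strand, and its match begins 26 bases before the annotated gene start. The Sec23a stretch is at chr12:59011974-59012041 on the minus strand, with the match starting 6 bases after the gene start. That of Sec16b is at chr1:157506722-157506789 on the plus strand, 44 bases before the start. Copb1 and Copb2 hold the reverse complement, at chr7:114254671-114254738 on the minus strand and chr9:98563694-98563761 on the plus strand, beginning 28 and 7 bases before their starts. Of these 5 genes, only Sec24d was at least 20% lower; Copb1 had a log2 ratio of −0.14, and Sec23a, Sec16b and Copb2 were at most 1.02-fold apart. The shorter core ACGTG, which lies inside TGACGTGG, was present in 28 of 45 members, or 62.2%, against 30.2% of genes with a window above the filter. Of the 8 lower members with a window 62.5% held it, and of the 36 others above the filter 63.9%. The share was 44.8% in the ER folding list. The CCAAT box, also searched on both strands and contained in the ER stress element described next, was in 22 of 45 members, or 48.9%, against 41.1% of all genes with a window, 42.9% of those above the filter and 86.2% of the ER folding list. Members had a median of 20 CpG pairs in the window and genes above the filter 22.

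The longer ER stress element, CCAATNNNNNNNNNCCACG, joins a CCAAT box to CCACG across 9 bases and was searched on both strands. It occurred in 0 of the 45 members, against 0.137% of all genes with a window and 0.176% of those above the filter. A count of 0 is thus near the background share. In the ER folding list 10 of the 29 genes held it. An example from that list is Hspa5, the main ER chaperone, shown at chr2:34771995-34772073 on the plus strand with the element in capitals.
Hspa5: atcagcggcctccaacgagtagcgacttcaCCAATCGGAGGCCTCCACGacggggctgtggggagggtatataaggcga
These matches describe letters in a fixed window, and no match says nothing about elements elsewhere.

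The COPI coat had a median log2 ratio of −0.02 and 5 of 7 genes below 0. At least 20% lower was 1 of the 7, or 14.3%, near the 11.8% of all genes. The median depended on the probe sets used: with only plain _at probe sets, which read 5 of the 7 genes, it was −0.14, beside −0.13 for the COPII coat. Copg1, the γ subunit, had 359 on the diosgenin array and 469 on the control array, 1.31-fold lower. Its second probe set above the filter had 128 on the diosgenin array and 168 on the control array, and the same log2 ratio of −0.39. Copg1 was thus lower on both of its probe sets. The α subunit Copa was at 1302 on the diosgenin array and 1433 on the control array, and the β subunit Copb1 at 637 on the diosgenin array and 701 on the control array. The β′ subunit Copb2 was at 835 on the diosgenin array and 831 on the control array. Arcn1, the δ subunit, had 1046 on the diosgenin array and 1059.9 on the control array, and Cope, the ε subunit, had 1098 on the diosgenin array and 1109 on the control array. The ζ subunit Copz1 was slightly higher, with 1037 on the diosgenin array and 963 on the control array. Among the 7 coatomer genes Copg1 alone was at least 20% lower.

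Among the SNAREs and cargo receptors, Sec22b had the lowest ratio of all members on the brightest probe set. This SNARE, which fuses vesicles between ER and Golgi, had 429 on the diosgenin array and 609 on the control array, 1.42-fold lower. Its second probe set was also lower, at 276 on the diosgenin array and 347 on the control array, a log2 ratio of −0.33. With the median of the probe sets of a gene, Srprb was lower than Sec22b, at −0.64 against −0.42. Sec22a, a relative of Sec22b, was at 127 on the diosgenin array and 120.3 on the control array.

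The p24 proteins Tmed2, Tmed9 and Tmed10 gather cargo and organise coats at both vesicle steps. Tmed9 had 453 on the diosgenin array and 503 on the control array. Tmed10 had the highest ratio of all members, at 418 on the diosgenin array and 356 on the control array, 1.18-fold higher. Its other probe sets, annotated to the pseudogene Tmed10-ps as well and so not counted, were at −0.05 to −0.21. The single Tmed2 probe set that names no other gene was under the floor on both arrays and gives no ratio. The 6 probe sets shared between Tmed2 and Gm10698 were bright and lay between −0.26 and −0.08, and that of Sec61g, shared with Gm11575 and Gm10177, was at 0.02.

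Genes that act beside these machines were taken from lists by step of the pathway. Of 113 such genes, 104 passed the filter, with 73 below 0 and a median log2 ratio of −0.10. At least 20% lower were 21 of the 104, or 20.2%, and 3 were at least 25% higher, against the shares of all genes given above. In glycan assembly 8 of 21 were lower, or 38.1%, and 1 higher by these distances, which hold for the counts that follow. Alg12, a mannosyltransferase, is an example at 58.8 on the diosgenin array and 96.4 on the control array, with 3 probe sets from −0.77 to −0.19. Another is Dpagt1, the first enzyme of the lipid-linked sugar chain, at 277 on the diosgenin array and 367 on the control array. The oligosaccharyltransferase subunit Ostc was also lower, at 761 on the diosgenin array and 1005 on the control array.

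At the COPII step 2 of 17 were lower, or 11.8%, equal to the share of all genes. None was higher, against 10.6% of all genes. Preb, the exchange factor that loads Sar1 with GTP, was 1.56-fold lower at 527 on the diosgenin array against 824 on the control array, with its 3 probe sets between −0.64 and −0.35. Mia2, a receptor at ER exit sites, was 1.39-fold lower at 71.4 on the diosgenin array against 99.2 on the control array. At the COPI and Golgi retrieval step 5 of 17 were lower, or 29.4%, against 11.8% of all genes. Arfgap3, a regulator of the COPI GTPase Arf1, was 1.91-fold lower at 54.9 on the diosgenin array and 105 on the control array. That ratio rests on 1 dim probe set. The Golgi stacking protein Gorasp1 was 1.57-fold lower at 120 on the diosgenin array against 188 on the control array, with its other probe set at −0.19. Gbf1, the exchange factor of Arf1, had probe sets from −0.38 to 0.58 and is unsettled.

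Of 17 cargo receptors, 1 was lower, or 5.88%, against 11.8% of all genes. It was Tmed3, a p24 protein, with 281 on the diosgenin array and 501 on the control array on 1 probe set. The p24 genes Tmed6 and Tmed11 and the retrieval receptor gene Kdelr3 were under the filter, with at least 1 signal under the floor. Among 13 SNAREs and their helpers, 4 were lower, or 30.8%, and 1 higher. Stx5a, the Golgi syntaxin that pairs with Sec22b, was 1.36-fold lower at 513 on the diosgenin array against 696 on the control array, with its other probe set at −0.31. Bet1, another partner in that complex, was 1.33-fold lower at 389 on the diosgenin array against 516 on the control array, with its other probe set at −0.15. Stx17 was the higher one, 1.51-fold at 161 on the diosgenin array against 107 on the control array, though its 4 probe sets ran from −0.06 to 0.59. In translocation and membrane insertion 1 of 19 was lower, or 5.26%, against 11.8% of all genes, and 1 was higher. The lower one, Emc1, a subunit of the ER membrane protein complex, had probe sets from −0.59 to 0.03. Tram2 was 1.40-fold higher at 104 on the diosgenin array against 74.1 on the control array.

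The transport genes were set beside the ER folding genes that act on the same cargo and the plasma proteins that pass through. Of 32 genes of ER folding and the unfolded protein response, 13 were at least 20% lower, against 11.8% of all genes, 7 of them at least 1.5-fold, against 3.61%, and 2 at least 25% higher, against 10.6%. Of the 32, 25 lay in the brightest 25% of genes, where the shares lower and higher were 5.47% and 4.89%. The largest ratios were those of Creld2 at −1.77, Derl3 at −1.65, Sdf2l1 at −1.09 and Syvn1, with 689 on the diosgenin array and 1375 on the control array. Creld2, Derl3 and Sdf2l1 each rest on 1 probe set above the filter. Derl3 was dim, at 50.0 on the diosgenin array and 157 on the control array. Of 27 plasma proteins above the filter, 0 were at least 20% lower and 0 at least 25% higher, and their median log2 ratio was −0.07. All 27 lay in the brightest 25% of genes, and counts of 0 are near its shares of 5.47% and 4.89%. Apob, the protein of VLDL, was the lowest of the 27, with 3671 on the diosgenin array and 4479.8 on the control array. Its other probe set was at −0.94. Medians were −0.19 for the folding list, −0.11 for the 51 transport genes and −0.07 for the plasma proteins, and the differences between them were not tested.

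**Figure D4:**
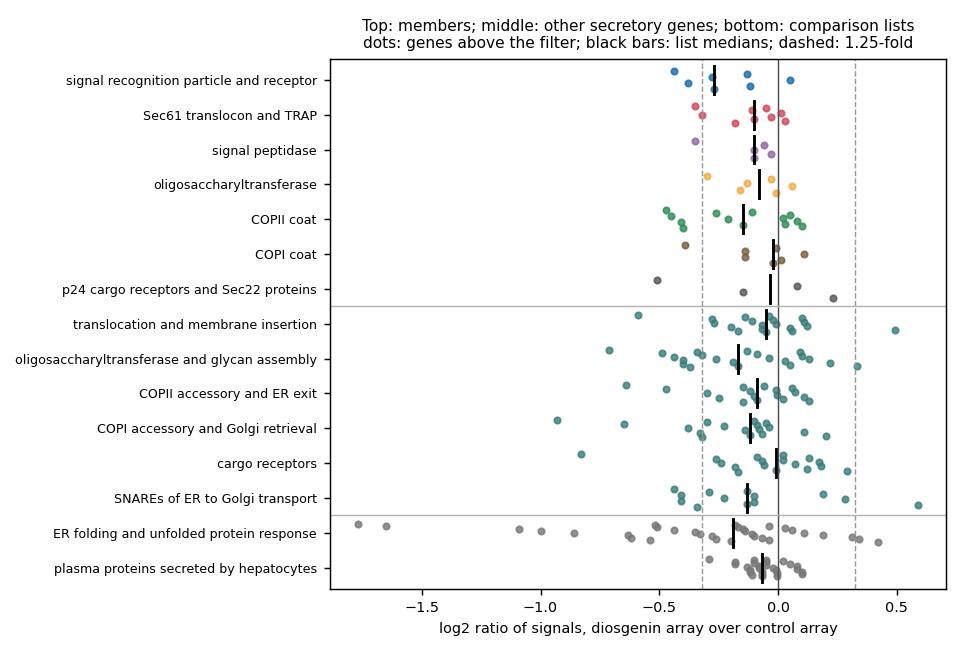
Log2 ratio of signals, diosgenin array over control array (horizontal axis), for each gene above the filter in the 7 machinery groups of members (top), 6 lists of other secretory pathway genes (middle), and the ER folding and plasma protein lists (bottom). Dots are genes, black bars list medians and dashed lines 20% lower and 25% higher; the folding list reaches to −1.77, the members to −0.51 and the plasma proteins to −0.29.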

How the data were processed

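Livers of mice on either diet were profiled on 1 Affymetrix array each, from 5 µg of RNA pooled from 3 mice, per the labels' protocols. The authors deposited linear signal intensities for 45101 probe sets, with the same trimmed mean on both arrays. The submitters' processing notes name GCOS, with no version. The summary algorithm, scaling target and detection calls are not stated. Names came from the platform annotation, in which 34958 probe sets had 1 symbol. Values were floored at 10.7 (40th percentile of all signals), the brightest probe set stood for a gene, and genes with a mean signal of at least 28.4 (60th percentile) were counted, 9732 in all. No p-value was computed, and the number of arrays limits the precision. Counts past a log2 ratio of 0.32 in size (20% lower, 25% higher) or 1.5-fold describe these 2 arrays. The members, lists, motifs and folds were chosen with earlier results of these data known. All members are named. In other lists, genes were named among the 4 largest ratios by size, and Ostc, next in its list, because it belongs to the same complex as members; Hspa5 was named for its promoter and genes with a signal under the floor as such. The floor, filter, probe set choice and scaling were varied in 8 alternatives. The gene table was tested on simulated data with 2-fold shifts and less noise than the spread between probe sets. That test does not bear on ratios as small as those of the members. Python 3.11.15, numpy 2.4.6, pandas 2.3.3, scipy 1.17.1 and matplotlib 3.10.9 were used.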

Additional observations from a re-analysis of the deposited data

How the results depend on the processing

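The count of members at least 20% lower was 10 under 7 of 8 alternatives and 9 with only plain _at probe sets, where 39 members were left. No member was at least 25% higher under any of the 8, and the median log2 ratio of members stayed between −0.14 and −0.11. Of the 10 lower members, 9 were lower under each alternative. The exception was Sec61a1, at −0.17 both with the median of the probe sets of a gene and with only plain _at probe sets, short of 20% lower. Much of this agreement was fixed in advance. Changes of floor and filter could not alter the ratios of the 10, whose signals lay above these limits. Of the 10, 6 had 1 probe set above the filter, a plain _at one, so the probe set alternatives could not move them. Srprb was at −0.64 with the median of the probe sets and with only plain _at ones, past 1.5-fold and the lowest of all members. With the median of the probe sets Sec24b was counted as lower, at −0.38, and Sec23ip was at 0.15, on the other side of 0. No other of the 394 single values moved by more than the spread between probe sets, and no machinery median moved by more than the error such a spread gives it. The widest shift was in the COPI coat, with a median of −0.14 over 5 genes with only plain _at probe sets against −0.02 over 7 as reported, and that of oligosaccharyltransferase was −0.14 there against −0.08. Over all genes, the share at least 20% lower was 8.2% with the filter at the 75th percentile and 11.3% to 12.2% under the others. No paired analysis was possible because each diet had 1 array. The spread between mice is not measured, and dim probe sets vary most.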

Other observations

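A probe set annotated to both Srprb and Trf, the transferrin gene, was very bright, at 8007 on the diosgenin array and 8637 on the control array, a log2 ratio of −0.11, while the 3 probe sets of Srprb alone were dim and at −0.44 to −0.74. In RefSeq both genes lie on mouse chromosome 9, Srprb at 103188033 to 103202065 and Trf at 103208876 to 103230286 (GRCm38.p6).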
